A study of Homo sapiens with 25 samples.

Results

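BT20 and MDA-MB-453, both lines from breast cancers, were compared before any drug had acted, across all genes measured. The 7 arrays were those labelled 0 minutes for these lines, 4 of BT20 and 3 of MDA-MB-453, out of 25 arrays in the series. The arrays were taken by their labels. The series asked how transcript levels in breast cancer lines follow inhibition of the EGFR kinase by erlotinib. RNA was hybridised to Affymetrix expression arrays, and levels are log2 values per probe set, so a difference of 1 is a factor of 2. BT20 was plated in medium with 10% fetal bovine serum and left for 24 h to attach before erlotinib was added at 10 µM, and RNA was taken at 0 minutes. MDA-MB-453 was handled in the same way. The 0 minute arrays of both lines carry the erlotinib label with a time of 0, and they have no vehicle control of their own.

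BT20 is a line derived from a breast carcinoma that makes much EGFR and has no ERBB2 amplification. MDA-MB-453 is a line derived from a breast carcinoma metastasis that makes much ERBB2. EGFR and ERBB2 are receptor tyrosine kinases of 1 family. Both pass signals to the RAS-ERK cascade and to PI3K and AKT, and a cell line often depends on the receptor it makes in excess. Breast cancer lines also keep features of the basal or the luminal layer of the mammary gland. With 1 line of each kind, receptor, lineage and the history of the line cannot be told apart in any difference below. The labels do not say whether the replicates were separate cultures, so p-values measure the spread between these samples, which may be technical. In RNA from a whole culture, fewer cells with a transcript and less RNA per cell cannot be told apart.

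The labels were checked first. EGFR had log2 values of 12.49, 12.46, 12.40 and 12.16 on BT20 replicates 1 to 4 and 3.64, 3.29 and 3.66 on MDA-MB-453 replicates 1 to 3. ERBB2 had values of 8.36, 8.67, 7.93 and 7.64 on BT20 replicates 1 to 4 and 10.88, 10.95 and 11.36 on MDA-MB-453 replicates 1 to 3. Both receptors were separated between the lines without overlap, EGFR higher on every BT20 array and ERBB2 higher on every MDA-MB-453 array. EPCAM, a surface protein of epithelial cells, was high and alike in both lines (12.12 to 12.44 in BT20 and 12.24 to 12.37 in MDA-MB-453, difference -0.01 ± 0.12). None of the 8 blood cell markers on the array passed 4 on any of the 7 arrays. Among 8 endothelial markers, the cadherin CDH5 and the transcription factor ERG were high in BT20 (10.86 to 11.85 and 5.91 to 7.79) and low in MDA-MB-453 (2.83 to 3.28 and 1.51 to 2.43), PECAM1 reached 4.90 on its highest array, of BT20, and was not tested, and VWF, KDR, TEK, TIE1 and CLDN5 stayed below 4 on all 7 arrays. The summed level of the endothelial markers on the linear scale was 2090 to 3810 on the BT20 arrays and 38.7 to 44 on the MDA-MB-453 arrays, most of it CDH5. The part of these cell markers in other differences was not tested. Among the fibroblast markers only COL1A1 passed 4, at 8.57 to 9.37 in BT20 and 11.01 to 11.27 in MDA-MB-453.

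The 7 arrays were on 1 scale. The 75th percentile of all probe sets lay between 7.66 and 7.81, and 44.4 to 45.2% of probe sets exceeded a value of 4. The lines differed in a large part of what they transcribe. A gene was tested when it exceeded 4 on at least 3 of the 7 arrays, and it was called when limma's p, after Benjamini-Hochberg adjustment across all genes tested, was under 0.05 and the difference at least 2-fold. Of 11689 genes tested, 4969 were called, or 42.5%. Of these, 2570 were higher in BT20 (22% of the genes tested) and 2399 were higher in MDA-MB-453 (20.5%). By the adjusted p alone 7943 genes passed (68%), and in 8094 (69.2%) the arrays of the lines did not overlap. The shares of 22% and 20.5% are the background for each gene group below, since a call was common in any case. The median difference over all genes was -0.024. The deposited values had been normalized between arrays, so this median cannot show whether 1 line held more RNA in all. A difference is the BT20 mean minus the MDA-MB-453 mean and is negative where MDA-MB-453 was higher, and ± gives the fit's standard error (n = 4 and 3).

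Many differences were large. A difference of at least 16-fold was reached by 570 called genes in BT20 and 341 in MDA-MB-453. A difference of at least 8 log2 units was reached by 95 and 49. At the other end, 57.2% of the genes tested differed by less than 2-fold. In 1527 called genes (30.7% of the calls) the lower line had a mean below 4, where a probe set is near its floor and the size of the difference is inexact. A value below 4 is called at the floor in what follows. Counted more strictly, 233 genes lay at 8 or above on every BT20 array and below 4 on every MDA-MB-453 array, and 129 showed the reverse.

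**Figure D1:**
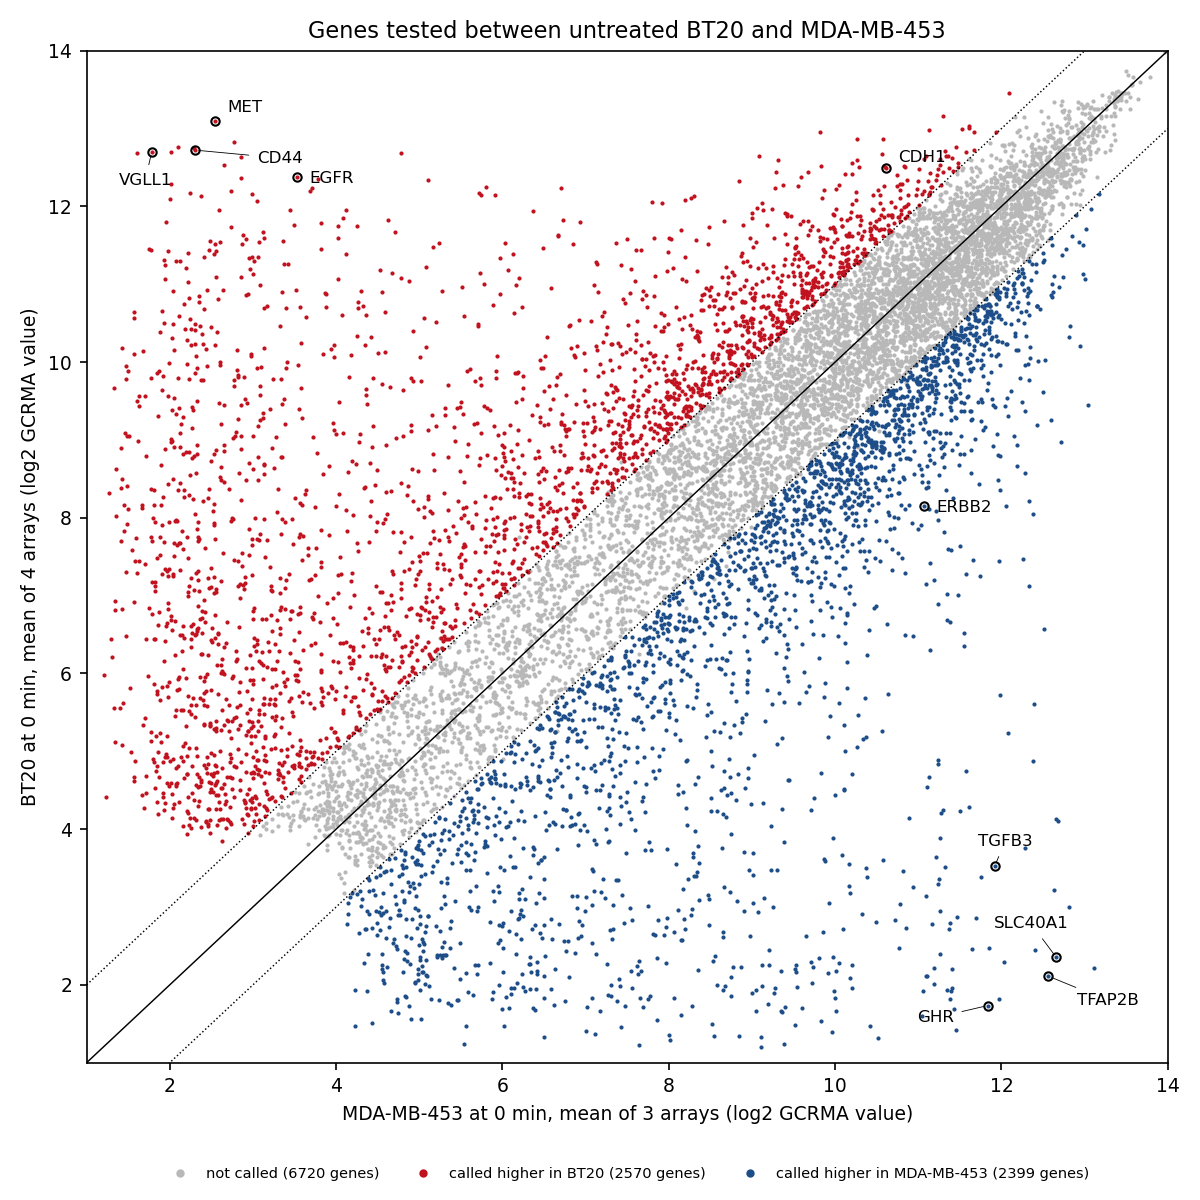
Mean log2 value of each gene tested in BT20 at 0 min (4 arrays, vertical axis) against MDA-MB-453 at 0 min (3 arrays, horizontal axis), with called genes coloured by the line in which they were higher. The 2570 and 2399 called genes spread to both sides of the diagonal, and the farthest lie near the floor of 1 line and above 10 in the other.

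BT20 replicate 4 stood apart from the other BT20 arrays. Over the genes tested, replicates 1 to 3 correlated with each other at 0.994 to 0.998, whereas replicate 4 correlated with them at 0.963 to 0.968 and with the BT20 arrays taken 6 h after erlotinib at 0.987 to 0.99. It was also nearer to MDA-MB-453 (0.725 to 0.729) than replicates 1 to 3 were (0.679 to 0.693). The BT20 arrays taken 6 h after erlotinib were nearer still (0.734 to 0.738). Replicate 4 differed at least 2-fold from the mean of replicates 1 to 3 in 1708 genes, and in 1430 of them (83.7%) it lay on the side of MDA-MB-453. Without it, 5300 of 11643 genes tested were called (45.5%), 2704 higher in BT20 and 2596 higher in MDA-MB-453, and 4840 of the 4969 calls were among them. When replicate 4 was set alone against the MDA-MB-453 arrays, 4421 genes were called (37.8%), and 3848 of the 4969 calls were made in the same direction. Only 35 of the 4969 turned their sign against replicate 4, but 1111 fell short of 2-fold. Genes whose difference is given and whose call was lost against replicate 4 alone are marked below, as are lists whose counts moved by over 1.5 times with it alone. Whether replicate 4 shares a preparation with the 6 h arrays is not given in the sources used here.

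**Figure D2:**
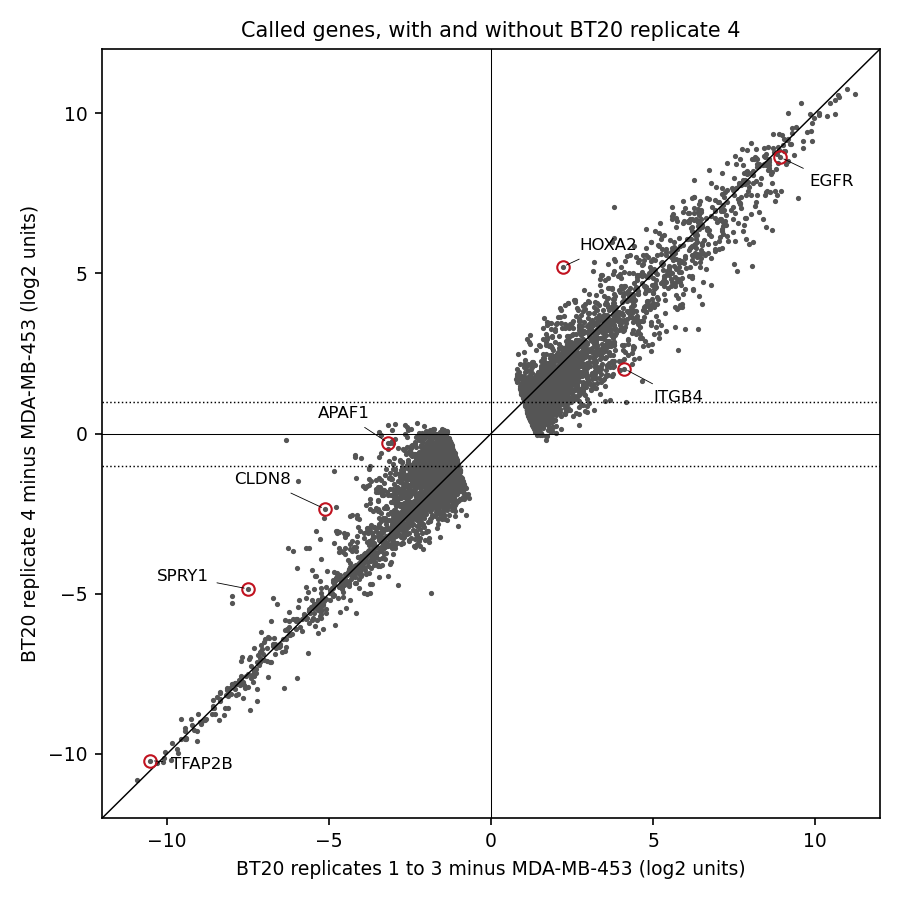
Difference from MDA-MB-453 for each called gene, measured with BT20 replicates 1 to 3 (horizontal axis) and with BT20 replicate 4 alone (vertical axis), both in log2 units. Most points follow the diagonal, 35 of 4969 lie on the other side of 0, and 1111 fall short of 2-fold (dotted lines) in replicate 4.

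The genes highest in BT20 over MDA-MB-453 came from several functions. OLFML3, a secreted glycoprotein of the matrix, had log2 values of 12.84, 12.73, 12.96 and 12.22 on BT20 replicates 1 to 4 and 1.80, 1.47 and 1.56 on MDA-MB-453 replicates 1 to 3 (difference 11.08 ± 0.19, adjusted p = 2.7e-09 in limma). VGLL1, a cofactor of the TEAD transcription factors that read the Hippo pathway, had values of 12.74, 12.74, 12.80 and 12.54 on BT20 replicates 1 to 4 and 1.98, 1.85 and 1.52 on MDA-MB-453 replicates 1 to 3 (10.92 ± 0.14). ALDH1A3, an enzyme that makes retinoic acid and is used as a marker of stem-like breast cells, had values of 12.81, 12.70, 12.88 and 12.66 on BT20 replicates 1 to 4 and 2.14, 2.02 and 2.15 on MDA-MB-453 replicates 1 to 3 (10.66 ± 0.11). All 3 were at 12 or above on every BT20 array and below 3 on every MDA-MB-453 array, so MDA-MB-453 was at the floor.

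A second receptor tyrosine kinase was among them. MET, the receptor of hepatocyte growth factor, had log2 values of 13.11, 13.10, 13.25 and 12.95 on BT20 replicates 1 to 4 and 2.79, 2.08 and 2.76 on MDA-MB-453 replicates 1 to 3 (10.55 ± 0.19), and its 4 probe sets tested were all higher in BT20. CD44, the hyaluronan receptor often used to mark basal and stem-like breast cells, had values of 12.77, 12.66, 12.83 and 12.63 on BT20 replicates 1 to 4 and 2.33, 2.54 and 2.03 on MDA-MB-453 replicates 1 to 3 (10.43 ± 0.14). LCN2, a secreted iron-siderophore carrier induced in inflammation, had values of 12.88, 12.97, 12.85 and 12.28 on BT20 replicates 1 to 4 and 2.43, 2.18 and 2.27 on MDA-MB-453 replicates 1 to 3 (10.45 ± 0.18). For each of these the MDA-MB-453 arrays were at the floor. AXL, a further receptor kinase, lay at 8.73 to 9.21 in BT20 and 1.12 to 1.74 in MDA-MB-453.

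The other members of the 25 with the largest difference toward BT20 lay between 9.07 (SP140L, a nuclear body protein) and 10.68 (MAGEA6). They included PTGES, the synthase of prostaglandin E2 (10.06), the gap junction protein GJA5 (9.94), the collagen prolyl hydroxylase P3H2 (10.26), the nicotinamide methyltransferase NNMT (9.76), the adhesion molecule L1CAM (9.66), the translation factor EIF5A2 (9.31) and the tubulin TUBB6 (9.21). The secreted glycoprotein OLFM4 (9.78), the protease inhibitor CST6 (9.45) and the kallikrein KLK6 (9.36) were there as well, and so were MALL, POPDC3, LRRC36 and the proteoglycan core SRGN.

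Some genes normally confined to the testis were high in BT20. MAGEA6 lay at 12.52 to 12.80 in BT20 and 1.91 to 2.18 in MDA-MB-453, and MAGEA12 at 10.87 to 11.67 and 1.71 to 1.82. The germ cell genes FMR1NB (9.19) and TDRD12 (9.18) were also among the 25. In the list of cancer/testis antigens 28 genes were on the array and 5 exceeded the filter. These 5, MAGEA6, MAGEA12, PASD1 (7.59), PRAME (4.38) and MAGEC1 (1.51), were all called higher in BT20. MAGEA6, MAGEA12 and PASD1 were below 4 on every MDA-MB-453 array. They passed the filter through BT20 alone and so had to differ in that direction. MAGE genes are close copies of each other, and probes can read more than 1 of them, so the 2 MAGEA values are not independent.

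On the side of MDA-MB-453 the largest differences held transcription factors of development and hormone receptors. TFAP2B, an AP-2 transcription factor of luminal and apocrine cells, had log2 values of 2.09, 1.96, 2.06 and 2.35 on BT20 replicates 1 to 4 and 12.61, 12.63 and 12.45 on MDA-MB-453 replicates 1 to 3 (-10.45 ± 0.13, adjusted p = 1.3e-09 in limma). SLC40A1, the iron exporter ferroportin, had values of 2.57, 2.21, 2.27 and 2.37 on BT20 replicates 1 to 4 and 12.70, 12.60 and 12.68 on MDA-MB-453 replicates 1 to 3 (-10.31 ± 0.12). GHR, the growth hormone receptor, had values of 1.57, 1.76, 1.89 and 1.71 on BT20 replicates 1 to 4 and 11.91, 11.74 and 11.85 on MDA-MB-453 replicates 1 to 3 (-10.10 ± 0.12). Each was above 11 on all MDA-MB-453 arrays and below 3 on all BT20 arrays, and replicate 4 did not differ from this.

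PRLR, the prolactin receptor, lay at 11.26 to 11.49 in MDA-MB-453 and 1.80 to 2.35 in BT20, and IRS4, an adaptor of the insulin receptors, at 11.03 to 11.22 and 1.95 to 2.34. The homeobox factor SIX2 differed by -9.96. AZGP1, a secreted lipid-mobilising protein of apocrine breast cells, differed by -9.81. TDO2, which breaks down tryptophan, differed by -9.74, the thrombin receptor THBD by -9.57, the imprinted gene PEG10 by -9.42 and IGFBP3, a carrier of insulin-like growth factors, by -8.97. The kinase NRK, TMTC1, the glycosyltransferase B3GALNT1, LRRC31, BRINP3, ECHDC1, NUDT19, NEXMIF, FAM110B, the pseudogene TCAM1P, the protease ADAMTS1, the glutamate transporter SLC1A7 and the aldehyde dehydrogenase ALDH7A1 made up the rest of those described, from -10.15 to -8.83.

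**Figure D3:**
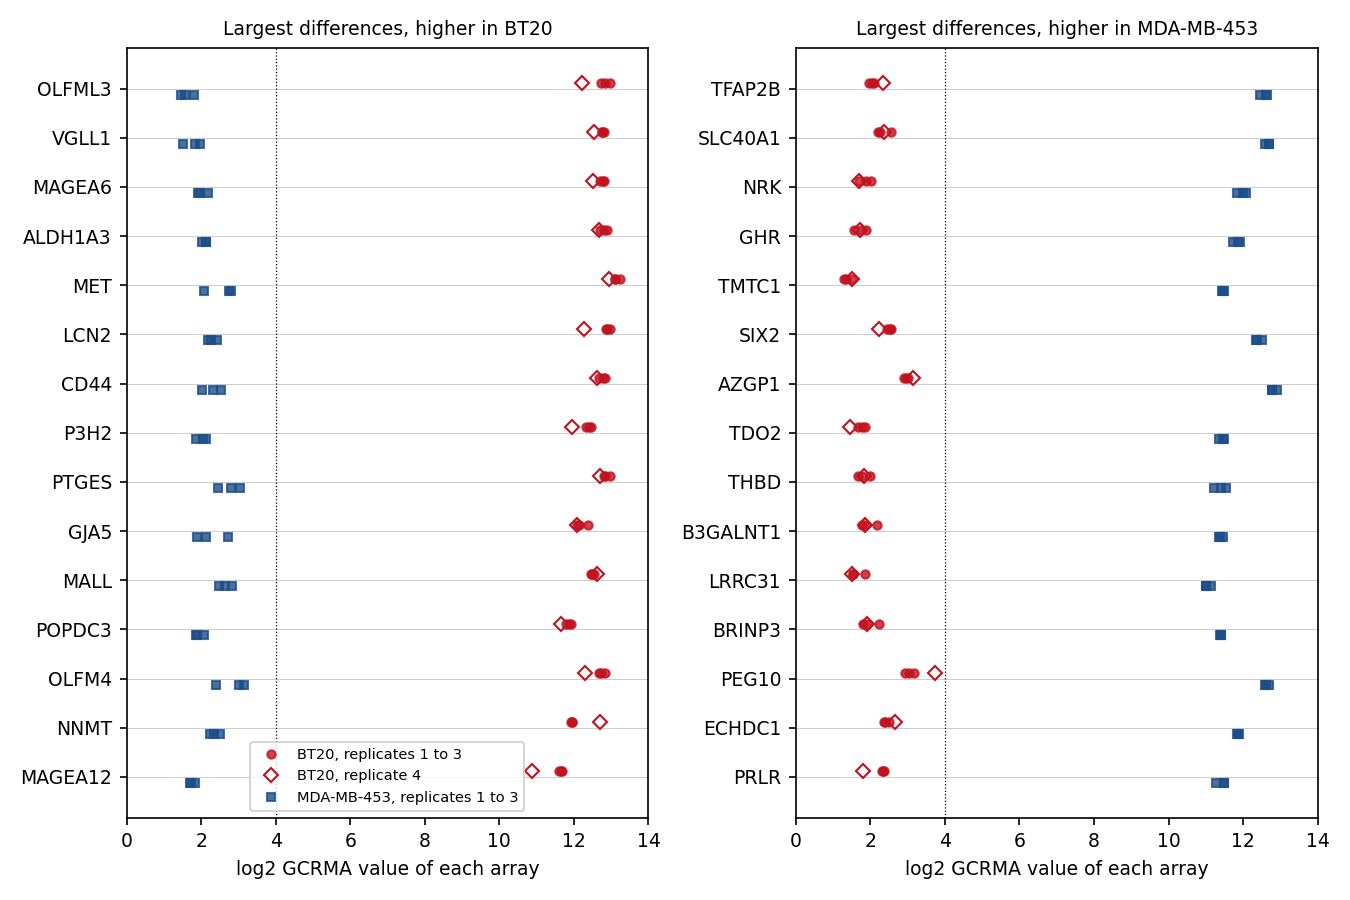
Log2 value on each of the 7 arrays for the genes with the largest difference in each direction (BT20 replicates 1 to 4 and MDA-MB-453 replicates 1 to 3 as separate points). The lines do not overlap for any gene shown, and BT20 replicate 4 (open diamonds) lies within 1 log2 unit of the nearest other BT20 array. The dotted line is at 4, the level of the filter.

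Promoter sequences of 4 of these genes are shown as examples for the CpG content of the genes that were on in 1 line and off in the other. CpG is the pair of bases that carries DNA methylation. Each sequence runs from 250 bases before to 50 after the start site on the strand of the gene, from RefSeq on GRCh38.p14, with CpG pairs in capitals. Where a gene has several start sites, only the first listed was used here and in all counts of promoters. That site may not be the one active in these lines. VGLL1 lies at chrX:136531965-136532264 (plus strand), ALDH1A3 at chr15:100879581-100879880 (plus strand), TFAP2B at chr6:50818621-50818920 (plus strand) and SLC40A1 at chr2:189580737-189581036 (minus strand).
VGLL1: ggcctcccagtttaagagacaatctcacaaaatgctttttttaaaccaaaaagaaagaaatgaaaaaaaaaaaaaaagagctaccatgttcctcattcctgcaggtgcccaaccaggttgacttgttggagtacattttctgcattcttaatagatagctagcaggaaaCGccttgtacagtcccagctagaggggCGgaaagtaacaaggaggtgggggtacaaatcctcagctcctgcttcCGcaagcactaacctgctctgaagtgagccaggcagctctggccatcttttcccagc
ALDH1A3: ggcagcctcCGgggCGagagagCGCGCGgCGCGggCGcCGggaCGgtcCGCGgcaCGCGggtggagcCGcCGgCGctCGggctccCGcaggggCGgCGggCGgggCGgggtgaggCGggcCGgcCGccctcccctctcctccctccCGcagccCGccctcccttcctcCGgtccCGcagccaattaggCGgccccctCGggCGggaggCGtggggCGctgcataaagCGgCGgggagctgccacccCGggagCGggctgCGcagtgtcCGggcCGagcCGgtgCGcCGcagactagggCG
TFAP2B: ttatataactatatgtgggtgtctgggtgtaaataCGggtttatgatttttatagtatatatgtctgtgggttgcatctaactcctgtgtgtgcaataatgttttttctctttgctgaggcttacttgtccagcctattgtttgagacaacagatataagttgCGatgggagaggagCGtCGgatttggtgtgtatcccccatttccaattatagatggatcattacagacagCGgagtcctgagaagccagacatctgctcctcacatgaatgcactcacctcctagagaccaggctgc
SLC40A1: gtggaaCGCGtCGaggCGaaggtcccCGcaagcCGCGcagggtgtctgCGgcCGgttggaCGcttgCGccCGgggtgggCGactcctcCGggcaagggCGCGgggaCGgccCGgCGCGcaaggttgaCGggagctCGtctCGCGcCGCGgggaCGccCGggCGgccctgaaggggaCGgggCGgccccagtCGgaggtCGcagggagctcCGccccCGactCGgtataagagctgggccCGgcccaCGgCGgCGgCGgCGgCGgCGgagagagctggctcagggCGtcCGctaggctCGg

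The 4 windows held 3, 46, 5 and 47 CpG pairs in that order, so both kinds of promoter occurred in each direction. Of the 233 genes on in BT20 and off in MDA-MB-453, 171 had a promoter in the table, and 35.1% of these held fewer than 10 CpG pairs. Of the 129 genes on in MDA-MB-453 and off in BT20, 102 had one, and 32.4% held fewer than 10. Among 3993 genes with a promoter that lay at 8 or above on all 7 arrays and were not called, the share was 5.16%, and among the 9604 genes tested with a promoter it was 11.2%. The median CpG number was 18 and 19 in the genes on in 1 line against 27 in those on in both. Over all 27305 promoters in the table the share was 44.0% and the median 14. No methylation was measured here.

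Differences were also read along the chromosomes. The genes tested were put in order along each chromosome, and the median difference was taken over each 15 genes in a row. Over 11345 such windows, the 5th to 95th percentile was -1.05 to 1.16 and the middle value -0.0415. The 4 windows highest for each line are described, with no test. They are the extremes of these same values, and whether neighbours differ together more than unrelated genes was not tested.

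The highest median, 3.9, lay on chromosome 1 in the cluster of S100 and cornified envelope genes, from TDRKH to S100A2, with 12 of 15 genes called higher in BT20 and 0 called the other way. It was 4.24 without replicate 4 and 2.82 with replicate 4 alone. S100A7, a psoriasin secreted by squamous and inflamed epithelium, had log2 values of 11.89, 11.98, 11.86 and 11.23 on BT20 replicates 1 to 4 and 2.47, 3.13 and 2.60 on MDA-MB-453 replicates 1 to 3. S100A9, a subunit of calprotectin, lay at 10.59 to 11.04 in BT20 and 3.62 to 4.09 in MDA-MB-453, and its partner S100A8 at 10.72 to 11.91 and 7.15 to 7.68. IVL, the cross-linked envelope protein involucrin, lay at 6.81 to 8.26 and 1.40 to 1.79, and TCHH, the hair follicle protein trichohyalin, at 5.22 to 5.89 and 1.01 to 1.91. THEM4 (3.44), S100A6 (4.66), S100A2 (4.29), PRR9 (3.90), SPRR3 (2.17), S100A4 (2.09) and S100A10 (1.87) were called too. S100A11 (0.19), SPRR1A (0.18) and TDRKH (-0.61) were not. Across the 12 tested S100 genes, 8 were higher in BT20, and S100A14 (-1.87) was the 1 higher in MDA-MB-453.

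The other BT20 windows lay on chromosome 11 from UBASH3B to ROBO3 (median 2.48, 10 of 15 genes called), on chromosome 1 from OLFML3 to TTF2 (2.34, 11 called) and on chromosome 8 from CSGALNACT1 to PDLIM2 (2.32, 11 called higher in BT20 against 1 in MDA-MB-453). In the chromosome 11 window, UBASH3B, a phosphatase that acts on receptor kinases, differed by 7.26, and in the OLFML3 window CD58, the ligand of CD2, by 3.89. With replicate 4 alone these medians were 1.81, 1.52 and 2.22.

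The lowest median, -2.32, lay on chromosome 1 from KCNK2 to DUSP10, with 10 of 15 genes called higher in MDA-MB-453. The potassium channel KCNK2 differed by -7.83, the nuclear receptor ESRRG by -4.47 and DUSP10, a phosphatase of the stress kinases, by -3.47. DUSP10 had log2 values of 6.37, 5.82, 5.70 and 8.73 on BT20 replicates 1 to 4 and 10.02, 10.01 and 10.34 on MDA-MB-453 replicates 1 to 3, with replicate 4 nearest to MDA-MB-453, and the median of the window was -1.4 with replicate 4 alone. On chromosome X a window from PHKA1 to ATP7A had a median of -1.99, with 9 genes called higher in MDA-MB-453 against 1 in BT20, among them the histone chaperone gene NAP1L2 (-7.71) and UPRT (-2.07). ATRX, a chromatin remodeller in that window, was not called (-0.30).

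A window on chromosome 17 from TRIM37 to PPM1D had a median of -1.92, with 8 called higher in MDA-MB-453 against 1 in BT20. Those called included RPS6KB1, the S6 kinase of the mTOR pathway (-2.97), APPBP2 (-1.95), HEATR6 (-1.95) and PPM1D, a protein phosphatase (-1.92), which was not called against replicate 4 alone (-0.71). The clathrin heavy chain CLTC was not called (-0.10). The median of the window was -1.93 without replicate 4, -0.711 with replicate 4 alone and -0.555 on the 24 h arrays. A chromosome 8 window from SNX16 to DECR1 had a median of -1.86 with 12 genes called, among them E2F5 (-3.42), the repair gene NBN (-1.002, with only 1 of its 4 probe sets lower in BT20, and not called against replicate 4 alone, -0.62) and DECR1 of fatty acid oxidation (-2.39), and -1.35 with replicate 4 alone. Copy number was not measured.

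Genes next to the receptors differed less than the receptors. Beside EGFR, 10 neighbours at 7p11 were tested, and 4 were higher in BT20: LANCL2 (3.84 ± 0.18), VOPP1 (2.60 ± 0.11), MRPS17 (1.93 ± 0.10) and PHKG1 (1.60 ± 0.23). None was higher in MDA-MB-453. LANCL2 and VOPP1, the neighbours that often share an EGFR amplicon, had log2 values of 12.27, 12.25, 12.08 and 11.84 and 12.90, 12.94, 12.82 and 12.82 on the BT20 arrays against 8.24, 8.57 and 7.996 and 10.09, 10.31 and 10.39 in MDA-MB-453. The BT20 values lay above the others without overlap.

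Beside ERBB2, 15 neighbours at 17q12 were tested, and 5 were higher in MDA-MB-453: PGAP3 (-1.70 ± 0.23), ORMDL3 (-1.59 ± 0.21), MED1 (-1.51 ± 0.43), MIEN1 (-1.43 ± 0.19) and FBXL20 (-1.15 ± 0.18). None was higher in BT20. GRB7, an adaptor that shares the usual ERBB2 amplicon, had log2 values of 6.27, 6.06, 6.08 and 4.99 on BT20 replicates 1 to 4 and 5.97, 5.77 and 6.45 on MDA-MB-453 replicates 1 to 3, and STARD3, a cholesterol transporter of the same amplicon, 4.59, 4.60, 4.72 and 3.36 on BT20 replicates 1 to 4 and 5.04, 5.12 and 5.36 on MDA-MB-453 replicates 1 to 3. Neither was called (-0.21 ± 0.32 and -0.86 ± 0.33), although replicate 4 lay below the other BT20 arrays for both and differed by -1.07 and -1.81 when taken alone. MED1 and FBXL20 were not called against replicate 4 alone (-0.30 and -0.70), and only 2 of the 4 probe sets of MED1 were lower in BT20.

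At 9p21, CDKN2A, which encodes the cell cycle inhibitor p16 and ARF, had log2 values of 1.88, 2.29, 2.19 and 2.19 on BT20 replicates 1 to 4 and 5.75, 5.41 and 5.92 on MDA-MB-453 replicates 1 to 3 (-3.56 ± 0.16). CDKN2B, the inhibitor beside it, had values of 1.75, 1.51, 1.30 and 1.31 on BT20 replicates 1 to 4 and 6.05, 5.68 and 4.96 on MDA-MB-453 replicates 1 to 3 (-4.09 ± 0.26). Both were at the floor in BT20 and above 4 on every MDA-MB-453 array. MTAP, the next gene and a salvage enzyme often lost with them, stood at 9.63 to 9.98 in BT20 and 9.01 to 9.20 in MDA-MB-453 and was not called (0.75 ± 0.13). The 5 MTAP probe sets were all higher in BT20, by up to 2.28. Of 10 genes tested there, ELAVL2 (-3.18), ACER2 (-1.68) and MLLT3 (-1.20) were also higher in MDA-MB-453, MLLT3 not against replicate 4 alone (-0.21). The lipid droplet coat PLIN2 was higher in BT20 (10.23 to 10.67 against 2.14 to 2.53).

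**Figure D4:**
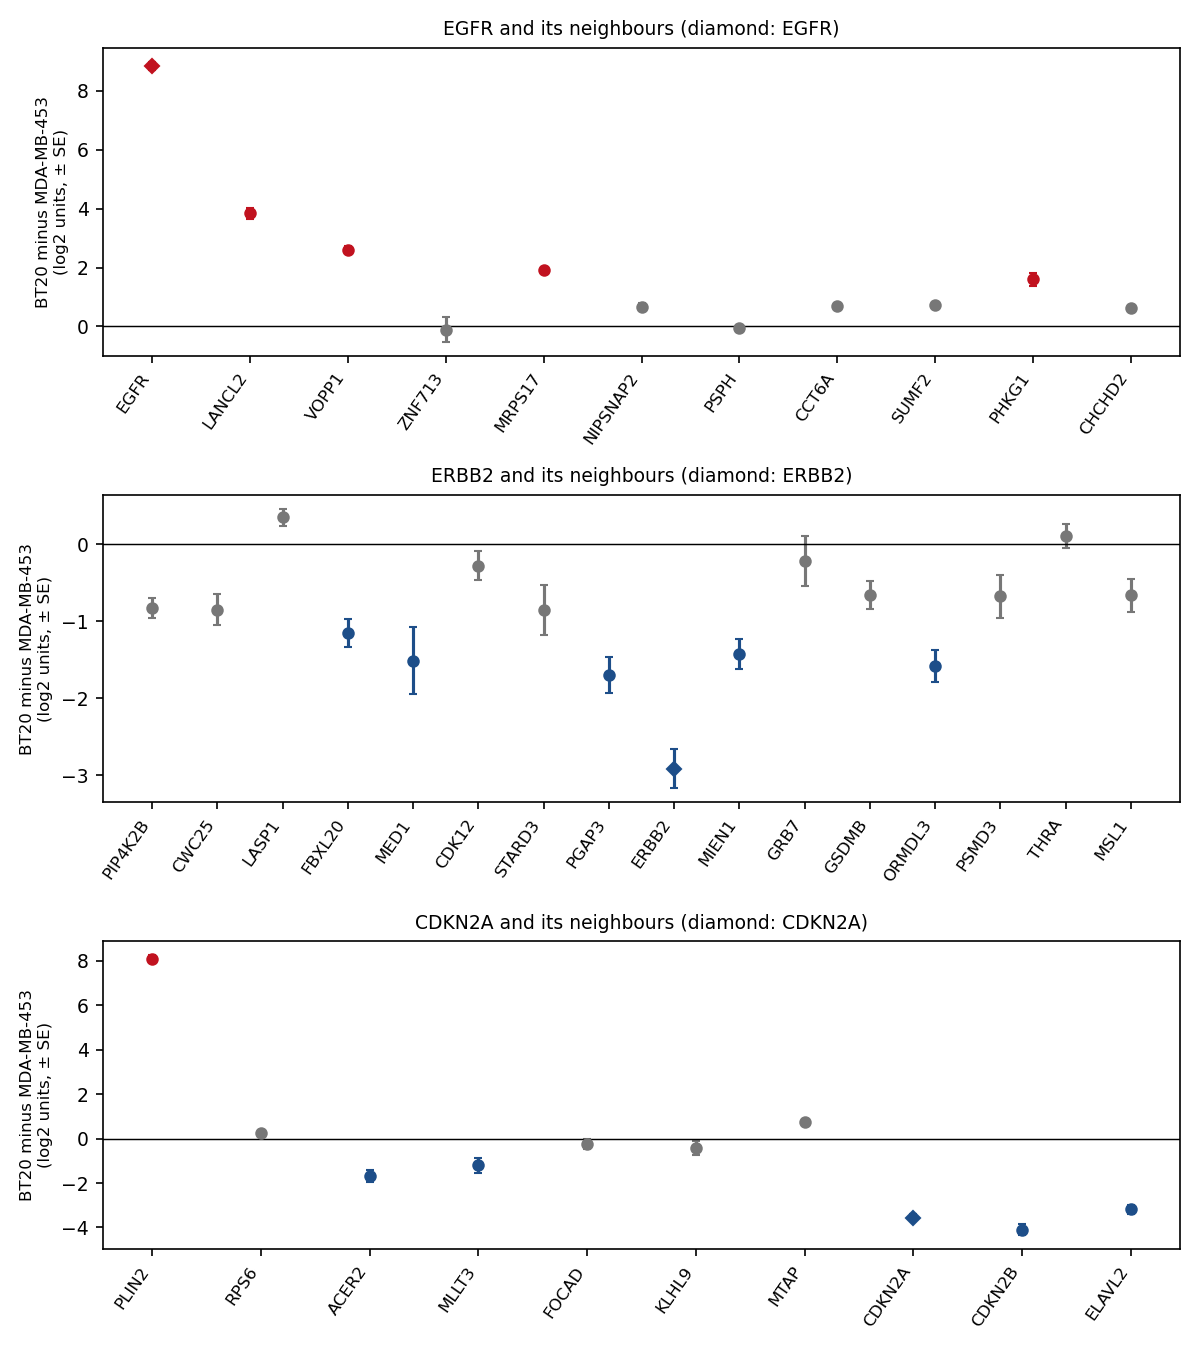
Difference of each gene, BT20 minus MDA-MB-453 in log2 units with its standard error, in order along the chromosome for EGFR, ERBB2 and CDKN2A (diamonds) and the neighbours tested, coloured where called. EGFR reaches 8.85 beside neighbours of at most 3.84, and ERBB2 -2.92 beside neighbours no lower than -1.70.

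Gene groups were counted against the background of 22% higher in BT20 and 20.5% higher in MDA-MB-453. Counts are over members that passed the filter, and a gene that passed only through the line in which it is high had to differ. Leaving aside the basal, ErbB and endothelial lists, the share higher in BT20 was highest, beside the cancer/testis and S100 genes, for extracellular proteases and their inhibitors (21 of 29 tested, of 55 on the array), antigen presentation (17 of 24), inflammatory cytokines and NF-kB genes (13 of 19), interferon-stimulated genes (19 of 33), steroid enzymes (14 of 26) and matrix adhesion genes (15 of 28). The shares higher in MDA-MB-453 reached at most 40.5% outside the luminal, ErbB and 9p21 lists and the single fibroblast gene. Ribosomal and respiratory chain genes had no called member. These counts describe the lists, and genes in a list were not tested as a set.

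**Figure D5:**
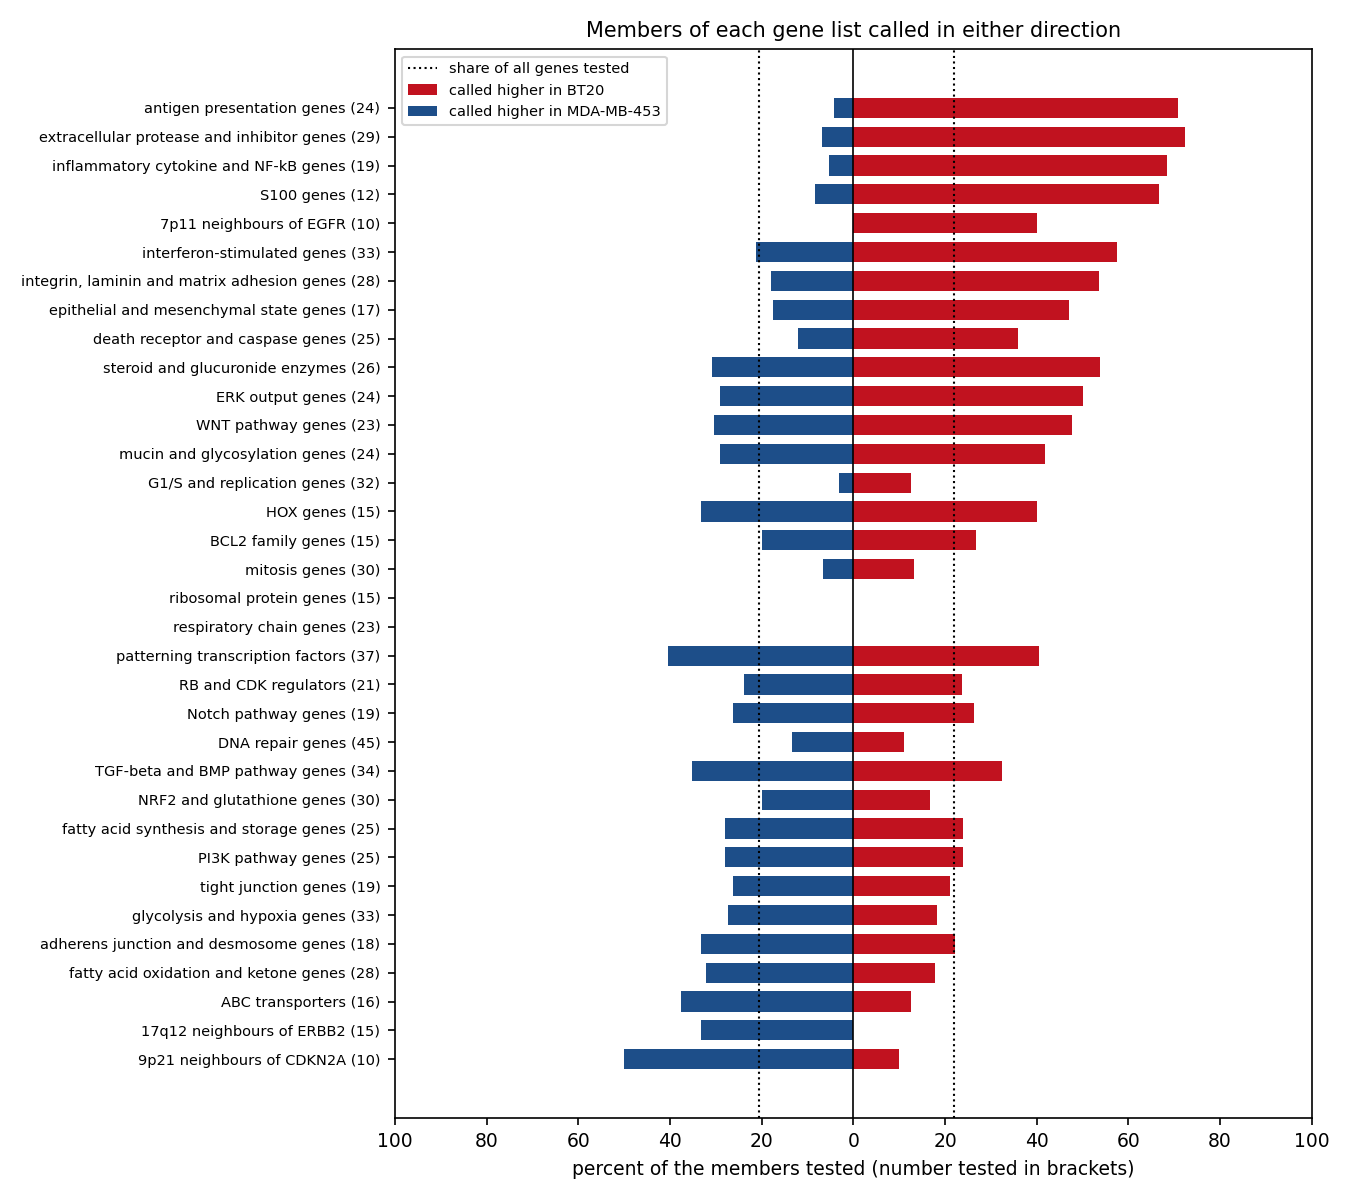
Percent of the tested genes of each list with 10 or more tested, some lists aside (basal, luminal and a further 2), called higher in BT20 and called higher in MDA-MB-453, with lines at the shares over all 11689 genes tested, 22% and 20.5%. Proteases, antigen presentation and cytokine lists extend far on the BT20 side, and the ribosomal and respiratory lists sit at 0.

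Matrix adhesion genes were more often higher in BT20. Of 28 matrix adhesion genes tested, 15 were higher in BT20 against 5 in MDA-MB-453 (median difference 1.55). FN1, fibronectin, had log2 values of 12.06, 12.08, 12.08 and 10.77 on BT20 replicates 1 to 4 and 4.55, 4.003 and 4.21 on MDA-MB-453 replicates 1 to 3 (7.49 ± 0.34), and 4 of its 5 probe sets were higher in BT20. LAMB3, a chain of the laminin that anchors basal epithelium, had values of 11.61, 11.54, 10.996 and 9.58 on BT20 replicates 1 to 4 and 3.87, 3.16 and 3.53 on MDA-MB-453 replicates 1 to 3 (7.41 ± 0.48). In both, replicate 4 lay below the other BT20 arrays and far above MDA-MB-453.

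COL12A1 (7.02), the integrin ITGB8 (6.04), the basement membrane collagens COL4A1 (5.63) and COL4A2 (5.37) and the fibronectin receptor chain ITGA5 (4.73) were higher in BT20 too. The 5 higher in MDA-MB-453, named after their values were seen, were smaller in size: COL4A6 (-2.20), the tetraspanin CD9 (-1.94), TNC (-1.68), THBS1 (-1.42) and COL4A5 (-1.02). COL4A5 was not called without replicate 4 (-0.98), CD9 and THBS1 were not called against replicate 4 alone (-0.63 and -0.41), and 5 of the 7 THBS1 probe sets were lower in BT20. COL4A5 was well above the filter in both lines (8.84 to 9.31 in BT20 and 9.93 to 10.35 in MDA-MB-453).

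Junction genes were called in both directions, in shares near the background. Of 18 adherens junction and desmosome genes, 4 were higher in BT20 against 6 in MDA-MB-453, and of 19 tight junction genes 4 and 5. CDH1, E-cadherin, had log2 values of 12.39, 12.49, 12.47 and 12.62 on BT20 replicates 1 to 4 and 10.82, 10.52 and 10.47 on MDA-MB-453 replicates 1 to 3 (1.89 ± 0.13), high in both lines and higher in BT20. CTNNA1, its link to actin, was not called (0.04 ± 0.11). CDH2, N-cadherin, lay at 6.65 to 6.74 in MDA-MB-453 and at the floor in BT20 (2.71 to 2.91). The desmosomal plakophilin PKP2 (4.91) and DSP (1.71) were higher in BT20, and the nectins NECTIN1 (-1.13), NECTIN2 (-2.78), NECTIN3 (-2.66) and NECTIN4 (-2.60) in MDA-MB-453. NECTIN1 was not called without replicate 4 (-0.93).

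Claudins split between the lines. CLDN1 had log2 values of 10.76, 10.84, 10.69 and 10.35 on BT20 replicates 1 to 4 and 2.04, 1.60 and 2.06 on MDA-MB-453 replicates 1 to 3 (8.76 ± 0.17), CLDN8 of 3.79, 3.69, 3.58 and 6.45 on BT20 replicates 1 to 4 and 8.89, 8.64 and 8.89 on MDA-MB-453 replicates 1 to 3 (-4.43 ± 0.67) and CLDN3 of 3.27, 3.52, 3.40 and 3.19 on BT20 replicates 1 to 4 and 7.30, 7.37 and 7.42 on MDA-MB-453 replicates 1 to 3 (-4.02 ± 0.12). CLDN1 was at the floor in MDA-MB-453, and CLDN3 was at the floor in BT20. CLDN8 was at the floor in BT20 replicates 1 to 3 and at 6.45 in replicate 4. The polarity scaffold PARD3 was higher in BT20 (4.12) and the adenovirus receptor CXADR in MDA-MB-453 (-3.80).

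Genes of the epithelial and of the mesenchymal state were counted in 1 list. Of 17 tested, 8 were higher in BT20 against 3 in MDA-MB-453 (9 and 1 with replicate 4 alone). The mesenchymal cadherin CDH2, described above, was higher in MDA-MB-453, and ZEB2, SNAI1, TWIST1, PRRX1 and SPARC did not exceed 4 on any of the 7 arrays. SNAI2, a repressor of epithelial genes that basal cells also make, lay at 9.46 to 10.40 in BT20 and 2.63 to 3.03 in MDA-MB-453. VIM, the intermediate filament vimentin, had log2 values of 7.03, 7.02, 6.63 and 7.49 on BT20 replicates 1 to 4 and 2.18, 2.19 and 2.29 on MDA-MB-453 replicates 1 to 3 (4.82 ± 0.19). ZEB1, a repressor of E-cadherin, stood at 4.58 to 4.998 in BT20, little above the filter, and 2.81 to 3.28 in MDA-MB-453. The epithelial factors GRHL3 (-5.97), OVOL1 (-1.31) and EHF (-1.30) were the 3 members higher in MDA-MB-453. A further 6 were not called, and not all of the 8 higher in BT20 are named here. AXL and S100A4, given above, are also in the list and were higher in BT20. The called members named thus run with a split, mesenchymal genes toward BT20 and epithelial factors toward MDA-MB-453. CDH1 and CDH2, outside the list, ran the other way. Whether the whole list splits in this way was not tested. OVOL1 and EHF fell short of 2-fold against replicate 4 alone (-0.93 and -0.96).

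Most secreted proteases and inhibitors that could be tested were higher in BT20. Of 29 tested, of 55 on the array, 21 were higher in BT20 against 2 in MDA-MB-453 (median difference 2.79). The kallikreins KLK5, KLK6, KLK7 and KLK8, serine proteases that sit side by side on chromosome 19 and act in shedding skin, differed by 8.93, 9.36, 3.79 and 6.65. KLK7 is named after its values were seen. KLK5 had log2 values of 11.80, 11.83, 11.53 and 11.02 on BT20 replicates 1 to 4 and 2.63, 2.82 and 2.38 on MDA-MB-453 replicates 1 to 3. TIMP2, an inhibitor of matrix metalloproteases, had values of 11.41, 11.40, 11.41 and 11.83 on BT20 replicates 1 to 4 and 2.84, 2.83 and 2.93 on MDA-MB-453 replicates 1 to 3. SERPINE2, an inhibitor of thrombin and plasminogen activators, had values of 12.02, 12.01, 12.08 and 11.69 on BT20 replicates 1 to 4 and 3.01, 4.40 and 2.94 on MDA-MB-453 replicates 1 to 3. None of these overlapped between the lines.

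SERPINA3, antichymotrypsin, was lower in replicate 4 (7.09) than in replicates 1 to 3 and at 1.85 to 2.16 in MDA-MB-453. The 2 genes of the list higher in MDA-MB-453 were the membrane metalloprotease MMP16 (-7.13) and CST3, the inhibitor cystatin C (-5.20, named after its values were seen), which lay at 2.37 to 2.80 in BT20 and 7.77 to 7.96 in MDA-MB-453. The related inhibitor CST6 ran the other way (9.45). The secreted protease ADAMTS1 (-8.94), described above, is not in this list and was higher in MDA-MB-453.

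Most inflammatory genes that could be tested were higher in BT20. The 21 of the list that could not be tested included IL1A, IL1B and TNF, which were at the floor on all 7 arrays. Of 19 cytokine and NF-kB genes tested, of 40 on the array, 13 were higher in BT20 against 1 in MDA-MB-453, which became 2 with replicate 4 alone. LIF, a cytokine of the interleukin-6 family, had log2 values of 8.93, 8.58, 8.79 and 9.93 on BT20 replicates 1 to 4 and 1.57, 1.35 and 1.52 on MDA-MB-453 replicates 1 to 3 (7.57 ± 0.30). CXCL8, the neutrophil chemokine interleukin-8, had values of 6.91, 6.85, 6.60 and 8.06 on BT20 replicates 1 to 4 and 2.86, 2.62 and 1.995 on MDA-MB-453 replicates 1 to 3 (4.61 ± 0.37). Both were at the floor in MDA-MB-453, and replicate 4 was the highest BT20 array for both.

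TNFAIP2 (8.24) and TNFAIP3 (3.69), targets of NF-kB, IL18 (5.31), the receptor antagonist IL1RN (5.06), ICAM1 (3.54) and RELB (1.998) were higher in BT20 as well. IL6 lay near the filter (3.81 to 5.52 in BT20) and rested on replicate 4: without it IL6 fell below the filter, with a difference of 1.02. NFKB2 (1.05), IL1R2 (1.55) and IL6R (1.34) were not called against replicate 4 alone (0.30, 0.59 and 0.10). IL1R1, the signalling receptor of interleukin-1, had log2 values of 8.11, 8.69, 8.91 and 10.16 on BT20 replicates 1 to 4 and 12.78, 12.66 and 12.72 on MDA-MB-453 replicates 1 to 3 (-3.75 ± 0.42) and was the 1 gene higher in MDA-MB-453, while its antagonist was higher in BT20.

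Interferon-stimulated genes split. Of 33 tested, 19 were higher in BT20 against 7 in MDA-MB-453 (median difference 1.91). IFITM1, a membrane protein that blocks virus entry, had log2 values of 9.80, 9.80, 9.69 and 9.82 on BT20 replicates 1 to 4 and 1.50, 1.34 and 1.59 on MDA-MB-453 replicates 1 to 3 (8.30 ± 0.11). GBP3, a guanylate-binding GTPase, had values of 9.87, 9.88, 10.20 and 9.47 on BT20 replicates 1 to 4 and 2.07, 2.56 and 2.27 on MDA-MB-453 replicates 1 to 3 (7.56 ± 0.20). SAMD9 (6.23), IFI35 (6.09), GBP1 (5.21), the DNA sensor IFI16 (4.54), IFITM3 (4.26) and IFIT3 (3.96) were higher in BT20 too.

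Those higher in MDA-MB-453, named after their values were seen, were IRF7 (-2.76), the transcription factor of the interferon response, the exonuclease ISG20 (-2.53), USP18 (-2.51), which removes ISG15 from proteins, ISG15 itself (-1.82), the RNA sensors IFIH1 (-1.57) and RIGI (-1.43) and PARP14 (-1.21). Of these, PARP14 was not called against replicate 4 alone (-0.37).

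Antigen presentation genes were mostly higher in BT20. Of 24 genes tested, 17 were higher in BT20 and 1, the trimming peptidase ERAP2 (-1.73, named after its values were seen), in MDA-MB-453. PSMB9 and PSMB8, catalytic subunits of the immunoproteasome, had log2 values of 9.11, 9.02, 8.96 and 9.04 and 11.09, 11.13, 11.15 and 10.64 on the BT20 arrays and 3.37, 3.16 and 3.30 and 5.72, 5.53 and 6.10 on those of MDA-MB-453. TAP2, a subunit of the peptide transporter, had values of 9.69, 9.76, 9.76 and 9.81 on BT20 replicates 1 to 4 and 5.07, 4.82 and 4.90 on MDA-MB-453 replicates 1 to 3 (4.83 ± 0.11), and its partner TAP1 had values of 8.66, 8.69, 8.39 and 7.33 on BT20 replicates 1 to 4 and 6.11, 6.31 and 6.17 on MDA-MB-453 replicates 1 to 3 (2.07 ± 0.32). For TAP1, replicate 4 lay between the other BT20 arrays and MDA-MB-453. PSMB10 (3.57), HLA-E (2.43), HLA-DRA (2.25) and HLA-DPA1 (4.19) were higher in BT20 as well. In BT20, HLA-DRA lay little above the filter (4.23 to 4.91), and HLA-DPA1 lay at 4.15 on replicate 4 and up to 6.21 on the others. Against replicate 4 alone, 11 of the 24 were called higher in BT20. Probes of HLA genes can read related HLA genes, so single values are uncertain.

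The promoters of 3 of these genes are shown because they hold the letters of the element read by interferon-regulated factors. The motif searched was GAAANNGAA on both strands (TTCNNTTTC on the other), the core of the interferon-stimulated response element. Matches are in capitals, and the windows, source and build are as above. TAP1 lies at chr6:32853655-32853954 (minus strand), IFITM1 at chr11:313790-314089 (plus strand) and GBP3 at chr1:89022817-89023116 (minus strand).
TAP1: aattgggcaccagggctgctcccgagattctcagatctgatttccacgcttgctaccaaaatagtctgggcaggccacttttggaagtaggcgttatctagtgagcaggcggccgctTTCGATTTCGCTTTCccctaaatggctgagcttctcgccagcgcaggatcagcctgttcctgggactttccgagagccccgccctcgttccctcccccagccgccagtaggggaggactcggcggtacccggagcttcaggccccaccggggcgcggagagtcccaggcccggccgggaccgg
IFITM1: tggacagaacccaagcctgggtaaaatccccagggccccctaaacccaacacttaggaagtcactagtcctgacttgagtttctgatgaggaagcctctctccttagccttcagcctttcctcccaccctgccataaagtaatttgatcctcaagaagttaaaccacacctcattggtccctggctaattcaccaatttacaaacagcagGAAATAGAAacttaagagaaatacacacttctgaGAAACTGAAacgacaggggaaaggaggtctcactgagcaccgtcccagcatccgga
GBP3: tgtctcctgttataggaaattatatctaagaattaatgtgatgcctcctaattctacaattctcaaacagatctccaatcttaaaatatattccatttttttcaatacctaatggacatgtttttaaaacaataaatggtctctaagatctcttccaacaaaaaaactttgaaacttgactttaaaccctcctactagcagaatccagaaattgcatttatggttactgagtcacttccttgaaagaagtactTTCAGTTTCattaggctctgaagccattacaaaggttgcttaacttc

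In TAP1 the capitals mark 2 matches that overlap, in IFITM1 they mark 2 that do not, and in GBP3 they mark 1. The motif occurred in 8.29% of all 27305 promoters and in 6.03% of the 9604 that belong to genes tested. It occurred in 17 of 28 interferon-stimulated genes tested with a promoter (60.7%), in 10 of 18 called higher in BT20 (55.6%) and in 4 of 5 called higher in MDA-MB-453 (80%), so it was found in both directions. Of 21 antigen presentation genes tested with a promoter, 9 held it (42.9%).

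Genes of cell death differed in both directions. Of 25 death receptor and caspase genes tested, 9 were higher in BT20 against 3 in MDA-MB-453. TNFSF10, the death ligand TRAIL, had log2 values of 2.28, 2.48, 2.21 and 2.51 on BT20 replicates 1 to 4 and 8.55, 8.81 and 8.28 on MDA-MB-453 replicates 1 to 3 (-6.18 ± 0.16). PYCARD, the inflammasome adaptor, had values of 2.19, 1.96, 2.29 and 2.27 on BT20 replicates 1 to 4 and 7.42, 7.74 and 7.83 on MDA-MB-453 replicates 1 to 3 (-5.48 ± 0.15). Both were at the floor on all BT20 arrays. FAS, a death receptor, lay at 6.06 to 6.57 in BT20 and 2.07 to 2.85 in MDA-MB-453, and CASP10, an initiator caspase, at 6.68 to 8.30 and 1.81 to 3.13. The pore-forming GSDME (2.48), the necroptosis kinase target MLKL (2.18) and CFLAR (2.13), which restrains CASP8, were higher in BT20.

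CASP8 had log2 values of 9.001, 8.53, 8.94 and 10.11 on BT20 replicates 1 to 4 and 9.66, 9.36 and 9.53 on MDA-MB-453 replicates 1 to 3. The 3 first BT20 arrays lay below MDA-MB-453 and replicate 4 above it, so its direction depended on replicate 4 (difference -0.37 ± 0.34 in all, -0.69 without it and 0.60 with it alone), and CASP8 was not called. APAF1, the scaffold of the apoptosome, had values of 7.05, 7.41, 7.11 and 10.07 on BT20 replicates 1 to 4 and 10.44, 10.25 and 10.41 on MDA-MB-453 replicates 1 to 3 (-2.45 ± 0.70). Without replicate 4 the difference was -3.17, whereas replicate 4 lay close to MDA-MB-453 (-0.29) and was not called.

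Of 15 BCL2 family genes, 4 were higher in BT20 against 3 in MDA-MB-453, and 2 in BT20 with replicate 4 alone. PMAIP1, the inducer of apoptosis NOXA, had log2 values of 8.68, 8.77, 8.77 and 8.92 on BT20 replicates 1 to 4 and 3.67, 3.34 and 2.998 on MDA-MB-453 replicates 1 to 3 (5.45 ± 0.17), and HRK (2.57), BAK1 (1.17) and BOK (1.12) were higher in BT20. BIK (-2.52), BNIP3 (-1.30) and BNIP3L (-1.46) were higher in MDA-MB-453. The inhibitors BCL2 (0.88 ± 0.18), BCL2L1 (0.35 ± 0.24) and MCL1 (0.12 ± 0.12) and the pro-apoptotic BID (0.70 ± 0.11), BAX (0.56 ± 0.12) and BCL2L11 (-0.12 ± 0.24) differed by less than 2-fold, and the probe sets of BCL2L1, MCL1 and BCL2L11 did not all run the same way. The 3 probe sets of BID were all higher in BT20, by up to 2.13. BAK1, BOK and BNIP3L fell short of 2-fold against replicate 4 alone.

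Targets of ERK were not uniform. Of 24 tested, 12 were higher in BT20 against 7 in MDA-MB-453 (median difference 0.995). FOSL1, an AP-1 transcription factor, had log2 values of 11.15, 11.15, 11.20 and 9.81 on BT20 replicates 1 to 4 and 2.37, 1.91 and 2.40 on MDA-MB-453 replicates 1 to 3 (8.60 ± 0.35). PHLDA1 (6.44), the urokinase receptor PLAUR (4.85), EPHA2 (3.70), ETV1 (3.69) and MAFF (3.64) were higher in BT20 too. SPRY1, a feedback inhibitor of the RAS-ERK pathway, had values of 3.67, 4.44, 4.14 and 6.72 on BT20 replicates 1 to 4 and 11.54, 11.55 and 11.64 on MDA-MB-453 replicates 1 to 3 (-6.83 ± 0.66). It was highest on the MDA-MB-453 arrays, and replicate 4 lay between them and the other BT20 arrays.

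The 7 genes higher in MDA-MB-453 were mostly inhibitors of that pathway. Beside SPRY1 they were, named after their values were seen, the ERK phosphatase DUSP6 (-3.23), DUSP5 (-1.44), SPRY4 (-1.91), SPRED1 (-1.23), SPRED2 (-1.43) and the receptor EPHA4 (-2.14). DUSP6 had log2 values of 9.02, 8.94, 9.39 and 9.42 on BT20 replicates 1 to 4 and 12.42, 12.42 and 12.44 on MDA-MB-453 replicates 1 to 3, well expressed in both lines. Against replicate 4 alone DUSP5, SPRED1 and SPRED2 fell short of 2-fold (-0.28, -0.55 and -0.97). SPRY2 (1.73), a further inhibitor of the family, was higher in BT20.

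In the PI3K pathway the insulin receptor substrates ran in opposite directions. IRS2 had log2 values of 11.15, 11.01, 11.02 and 10.40 on BT20 replicates 1 to 4 and 3.40, 3.68 and 2.98 on MDA-MB-453 replicates 1 to 3 (7.54 ± 0.23), and IRS1 had values of 7.61, 7.67, 8.14 and 6.36 on BT20 replicates 1 to 4 and 11.94, 11.98 and 11.98 on MDA-MB-453 replicates 1 to 3 (-4.52 ± 0.38). Of 25 genes tested, 6 were higher in BT20 against 7 in MDA-MB-453, and with replicate 4 alone 6 against 3. The kinase SGK1 (6.29), the catalytic subunit PIK3CD (3.80) and the phosphatase INPP4B (3.13) were higher in BT20, and the transcription factor FOXO4 (-4.64) in MDA-MB-453.

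Of 23 WNT pathway genes, 11 were higher in BT20 against 7 in MDA-MB-453. The secreted inhibitors DKK1 and SFRP1 were high in BT20, at 11.20 to 11.66 and 7.33 to 8.52 against 3.23 to 4.19 and 2.18 to 2.73. NKD1 (-3.64), a feedback inhibitor that the pathway induces, and the receptor FZD4 (-3.88) were higher in MDA-MB-453, as was AXIN2 (-2.08), a second induced inhibitor. Of 19 Notch pathway genes 5 were higher in each line, near the background. They were led by the coactivator MAML2 in BT20 (6.21) and the ligand DLL1 in MDA-MB-453 (-5.17).

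Of 34 TGF-beta and BMP genes, 11 were higher in BT20 against 12 in MDA-MB-453. INHBA, the activin subunit, had log2 values of 11.89, 11.88, 11.75 and 11.87 on BT20 replicates 1 to 4 and 3.92, 5.12 and 3.22 on MDA-MB-453 replicates 1 to 3 (7.76 ± 0.39), and TGFB3, a TGF-beta ligand, had values of 3.36, 3.65, 3.39 and 3.68 on BT20 replicates 1 to 4 and 11.86, 12.01 and 11.88 on MDA-MB-453 replicates 1 to 3 (-8.40 ± 0.13). The receptor TGFBR2 (5.45), the matrix protein TGFBI (6.61) and the activin-binding FSTL1 (7.55) were higher in BT20. ID2, a target of BMP signals that blocks differentiation factors, had values of 3.68, 3.27, 4.02 and 3.06 on BT20 replicates 1 to 4 and 11.26, 11.10 and 11.60 on MDA-MB-453 replicates 1 to 3 (-7.81 ± 0.25).

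Steroid metabolism differed gene by gene. Of 26 enzymes tested, 14 were higher in BT20 against 8 in MDA-MB-453. HSD3B1, which makes progesterone and androgen precursors, had log2 values of 11.11, 11.04, 10.95 and 11.29 on BT20 replicates 1 to 4 and 2.75, 2.39 and 2.54 on MDA-MB-453 replicates 1 to 3 (8.54 ± 0.14). HSD17B1, which makes estradiol, lay at 9.10 to 10.79 in BT20 and 2.22 to 2.54 in MDA-MB-453, but only 1 of its 2 probe sets was higher in BT20. HSD17B4, a peroxisomal enzyme of the same family, had values of 3.64, 3.35, 3.16 and 3.40 on BT20 replicates 1 to 4 and 11.80, 11.81 and 11.66 on MDA-MB-453 replicates 1 to 3 (-8.37 ± 0.14). AKR1C1 (6.55), AKR1C2 (7.05) and AKR1C3 (7.16), close copies whose probes can overlap, were higher in BT20.

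Androgen-related genes split 4 to 6 of 17 tested, with STEAP4 (8.85) higher in BT20 and KCNMA1 (-4.49) and TMPRSS2 (-2.38) in MDA-MB-453.

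Energy metabolism differed at a few large steps. PPARG, the nuclear receptor of fat storage, had log2 values of 10.41, 10.54, 9.93 and 10.27 on BT20 replicates 1 to 4 and 2.17, 2.28 and 2.19 on MDA-MB-453 replicates 1 to 3 (8.08 ± 0.16), while its coactivator PPARGC1A lay at 7.58 to 7.89 in MDA-MB-453 and 2.75 to 3.19 in BT20. CRAT, carnitine acetyltransferase, had values of 3.41, 3.44, 2.89 and 3.43 on BT20 replicates 1 to 4 and 11.44, 11.57 and 10.70 on MDA-MB-453 replicates 1 to 3 (-7.94 ± 0.24). Of 28 fatty acid oxidation genes 5 were higher in BT20 against 9 in MDA-MB-453. Of 25 fatty acid synthesis genes 6 and 7 were called, near the background. These were led by ACSL4 (5.26), which activates arachidonic acid, in BT20 and FABP7 (-2.95) in MDA-MB-453.

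Of 33 glycolysis and hypoxia genes, 6 were higher in BT20 against 9 in MDA-MB-453, near the background. The vasoactive peptide ADM (7.88) was higher in BT20, and the oxygen sensor EGLN3 (-5.94), the phosphofructokinase PFKM (-4.14) and the glucose transporter SLC2A10 (-4.35) in MDA-MB-453. Of 30 NRF2 and glutathione genes, 5 were higher in BT20 against 6 in MDA-MB-453, near the background. ME1 (8.88), AKR1B10 (8.56) and the exporter ABCC2 (6.20) were higher in BT20, and NQO1, a common reporter of NRF2, was high and alike in both (13.11 to 13.36 and 13.10 to 13.22). GSTT1, a glutathione transferase, lay at 8.88 to 9.19 in MDA-MB-453 and at the floor in BT20 (1.49 to 1.95). GSTP1 did not exceed 4 on any array.

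Of 16 transporters in the ABC list tested, 2 were higher in BT20 against 6 in MDA-MB-453, and 8 were not called. ABCG2, an exporter of drugs, had log2 values of 9.23, 9.20, 9.15 and 10.30 on BT20 replicates 1 to 4 and 2.60, 3.34 and 2.83 on MDA-MB-453 replicates 1 to 3 (6.55 ± 0.32). ABCC11, an exporter of apocrine glands, had values of 2.31, 2.50, 2.39 and 2.18 on BT20 replicates 1 to 4 and 9.72, 9.69 and 10.03 on MDA-MB-453 replicates 1 to 3 (-7.46 ± 0.14). The cholesterol exporters ABCA1 (6.72) and ABCG1 (-6.40) ran in opposite directions. ABCC2, given above with the NRF2 genes, is an ABC transporter outside this list and was higher in BT20.

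Among glycosylation genes, 10 of 24 were higher in BT20 against 7 in MDA-MB-453. MUCL1, a small mucin of the breast, had log2 values of 6.15, 5.81, 6.02 and 4.46 on BT20 replicates 1 to 4 and 12.40, 12.42 and 12.37 on MDA-MB-453 replicates 1 to 3 (-6.79 ± 0.39), and B3GNT3 (6.44) and FUT3 (5.85), which build chains of blood group antigens, were higher in BT20.

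Position genes also differed within 1 cluster. Of 15 HOX genes tested, 6 were higher in BT20 against 5 in MDA-MB-453. HOXB7 had log2 values of 10.93, 10.87, 11.35 and 10.96 on BT20 replicates 1 to 4 and 2.09, 2.50 and 2.08 on MDA-MB-453 replicates 1 to 3 (8.80 ± 0.17), and HOXB5 (5.64), HOXB4 (2.90) and HOXB6 (2.74) were higher in BT20, whereas HOXB2 of the same cluster had values of 2.25, 2.34, 2.22 and 2.27 on BT20 replicates 1 to 4 and 6.93, 7.71 and 7.12 on MDA-MB-453 replicates 1 to 3 (-4.98 ± 0.19). Of the HOXC genes, HOXC4 (-2.07), HOXC9 (-1.62), HOXC11 (-1.72) and HOXC13 (-1.49) were higher in MDA-MB-453 and none in BT20.

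Of 37 other patterning factors, 15 were higher in each line. BCL11B lay at 10.14 to 10.29 in BT20 and 2.35 to 2.72 in MDA-MB-453, PAX6 at 9.30 to 10.53 and 2.04 to 2.59, and RUNX3 at 6.74 to 9.13 and 1.91 to 2.42. SOX11 lay at 9.25 to 9.49 in MDA-MB-453 and 1.50 to 1.96 in BT20, and PAX9 at 8.57 to 9.31 and 2.71 to 5.32, where the highest BT20 value was that of replicate 4.

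Genes of growth itself differed less. Of 32 G1/S and replication genes tested, 4 were higher in BT20 and 1, the replication factor GINS1 (-2.02 ± 0.45), in MDA-MB-453. Of 30 mitosis genes, 4 and 2 were called, and of 45 DNA repair genes, 5 and 6. No member of 15 ribosomal protein genes or of 23 respiratory chain genes was called. Each of these shares lay below the background of 22% and 20.5%. The mitotic kinase AURKB was the largest of the mitosis genes (3.04 ± 0.26). GINS1 had log2 values of 9.52, 9.62, 9.98 and 11.49 on BT20 replicates 1 to 4 and 12.18, 12.15 and 12.18 on MDA-MB-453 replicates 1 to 3, and with replicate 4 alone the difference was -0.68. Of the repair genes, FANCC (2.13) was higher in BT20 and ERCC4 (-1.97) and ATM (-1.48) in MDA-MB-453, where only 1 of 3 ATM probe sets was lower in BT20 and ATM was not called against replicate 4 alone (-0.83). With replicate 4 alone, 3 and 2 repair genes were called, none of the replication genes was higher in MDA-MB-453, and 1 of the mitosis genes was.

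Of 21 regulators of RB and the cyclin-dependent kinases, 5 were higher in each line, near the background, and 4 and 3 with replicate 4 alone. CDK6, a kinase that phosphorylates RB, had log2 values of 11.01, 10.93, 10.93 and 10.95 on BT20 replicates 1 to 4 and 6.65, 6.62 and 6.47 on MDA-MB-453 replicates 1 to 3 (4.37 ± 0.10). RB1 differed by less than 2-fold (-0.63 ± 0.16). CCNE1 (1.43) and the inhibitor CDKN1A (2.34) were higher in BT20, and CDKN1B (-1.20) and E2F5 (-3.42) in MDA-MB-453. CCND1 was higher in BT20 by 1.56, but its second probe set ran the other way. CDKN1B was not called against replicate 4 alone (-0.66).

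The difference was then taken on other arrays of the same lines, 3 of each, 24 h after erlotinib. They share no array with the comparison above, but they hold the drug and a further day in culture. Of 11770 genes tested there, 5236 were called (44.5%). Of the genes called at 0 min, 4807 could be tested at 24 h. In the same direction 4063 of these were called (84.5%), and 20 were called in the opposite direction. HSD3B1 went from 8.54 to 1.70, FOSL1 from 8.60 to 2.57 and AXL from 7.55 to 2.17. DUSP6 went from -3.23 to -8.98 and SPRY4 from -1.91 to -6.59. HSD3B1 and AXL passed 4 on too few arrays at 24 h to be tested. ID1, a target of BMP signals, turned from -1.90 to 2.65, and at 0 min it was not called against replicate 4 alone (-0.84). These 24 h values describe the treated lines, and the change between the times was not tested here.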

How the data were processed

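The values are log2 values per probe set that the authors deposited, made with GCRMA 2.20.0 in R 2.11.1, per the submitters' processing notes. GCRMA corrects background by probe sequence, normalizes between arrays and combines the probes of a set. The array platform holds several probe sets for many genes. Of 54613 probe sets, the annotation gave 41091 a single gene symbol, 1801 several and 11721 none. For each of 19775 genes, the single-symbol probe set with the highest 25-array mean was used.

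In R 4.3.3, limma 3.58.1 was fitted to the 7 arrays with 2 group means, for genes above 4 on at least 3 arrays. Calls needed an adjusted p under 0.05 and a difference of at least 1 log2 unit. The scripts were tested on simulated data. The number of arrays limits the precision.

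The gene lists and the comparison were chosen with earlier results of these data known. Genes named are the 25 with the largest difference in each direction (called, no overlap, mean of at least 6 in the higher line, outside the ErbB, basal and luminal lists), up to 8 per list with the largest differences, any member of lists with up to 20 tested, the genes of the windows described and some named in every case. CD9, CDKN1B, COL4A5, COL4A6, CST3, DUSP5, DUSP6, EPHA4, ERAP2, ID1, IFIH1, IRF7, ISG15, ISG20, KLK7, NQO1, PARP14, RIGI, SPRED1, SPRED2, SPRY2, SPRY4, THBS1, TNC and USP18 are named after their values were seen. The rule also gives 1 gene that is not reported here. Alternatives changed the arrays in the fit, the filter, the probe set rule, the scaling, the empirical Bayes step, array weights, the call rule, the replicates and the window length.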

Additional observations from a re-analysis of the deposited data

Results flagged for a closer look

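The test for a lone high or low sample was applied to the 4 BT20 arrays of each gene named, and it found 1 in 53 of 315 genes. Chance alone gives about 1 in 20 groups. In 46 of the 53 the lone array was replicate 4. Over all genes tested, 1496 (12.8%) had a lone array, and it was replicate 4 in 1308 of them (87.4%).

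Replicate 4 lay above the other BT20 arrays for ABCG2 (log2 value 10.30), APAF1 (10.07), CD9 (12.37), CDH5 (11.85), CLDN8 (6.45), COL12A1 (11.15), CSGALNACT1 (11.70), DUSP5 (10.83) and ERCC4 (8.50). It was also the high array for FBXL20 (7.12), IL6 (5.52), NNMT (12.69), RPS6KB1 (9.42), SNX16 (9.29), SPRED2 (10.82), TGFBR2 (11.79) and TIMP2 (11.83). Replicate 4 lay below the other BT20 arrays for ERG (5.91), FN1 (10.77), FOSL1 (9.81), FOXO4 (3.51), FSTL1 (8.95), GRB7 (4.99), H2AC6 (9.14), HLA-DPA1 (4.15) and HSD17B1 (9.10). It was also the low array for IL1R2 (7.91), ISG15 (6.38), MAGEA12 (10.87), MLKL (9.37), NECTIN1 (4.91), PARD3 (10.79), PLAUR (10.29), PRLR (1.80) and PRR9 (4.83). Lower values of replicate 4 were found for PSMB8 (10.64), RELB (3.89), RUNX3 (6.74), S100A14 (9.03), S100A7 (11.23), S100A8 (10.72), SERPINA3 (7.09), STARD3 (3.36) and THEM4 (9.31). The last of these were TNC (9.38) and ZNF320 (10.79).

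In 7 genes another BT20 array stood apart, by small amounts beside the difference between the lines: CRAT (replicate 3, 2.89 against 3.41 to 3.44), IFITM1 (replicate 3, 9.69 against 9.80 to 9.82), INHBA (replicate 3, 11.75 against 11.87 to 11.89), LRRC31 (replicate 1, 1.85 against 1.51 to 1.53), PFKM (replicate 3, 6.15 against 6.26 to 6.28), S100A11 (replicate 3, 12.72 against 12.60 to 12.60) and TNFAIP2 (replicate 3, 10.87 against 11.14 to 11.18). For S100A11 that difference was itself under 2-fold.

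For 5 genes every BT20 array lay on 1 side of the MDA-MB-453 arrays at 0 min and on the other side at 24 h. BCL2 differed by 0.88 at 0 min and by -1.85 at 24 h. ID1 differed by -1.90 at 0 min and by 2.65 at 24 h. IL1R2 differed by 1.55 at 0 min and by -1.54 at 24 h. PARP14 differed by -1.21 at 0 min and by 0.76 at 24 h. SPRY2 differed by 1.73 at 0 min and by -0.55 at 24 h. The 24 h arrays hold erlotinib and a further day in culture, and the difference between the times was not tested.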

How the results depend on the processing

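Beside the 2570 genes called higher in BT20 and the 2399 called higher in MDA-MB-453, limma's treat against a 2-fold difference called 1691 and 1362, and an adjusted p without a bound on the difference called 3943 and 4000. Fits to all 25 arrays or to the 19 of Part 1, other filters, other probe set rules, array weights, a robust empirical Bayes step with a trend, centring and quantile normalization gave 2099 to 3340 and 2046 to 3192. The share of calls higher in BT20 was 49.6 to 55.4% under these. Leaving out 1 array at a time gave 2389 to 2704 and 1786 to 2596 calls, and 3294 to 3635 of the genes were called the same way at 24 h. Leaving out an MDA-MB-453 array moved the share of calls higher in BT20 to 57.2 to 58.6%, since a gene on in that line alone then had 2 arrays above the filter that needs 3.

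Same-numbered arrays of the lines did not deviate together (correlations of -0.045, 0.08 and 0.087), so the numbers were not taken as pairs. With a replicate block over replicates 1 to 3, 2704 and 2596 genes were called, 5300 in all, and all 5300 were the calls made without replicate 4 and without the block. Each block held 1 array of each line, so the differences were the same with and without it. The equal counts therefore say little about pairs. COL4A5 and NECTIN1 lost their call without replicate 4 (-0.98 and -0.93), with or without the block.

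With windows of 10 and 25 genes the highest median was 5.08 and 2.15, and the lowest was -5.84 and -2.07, by the construction of the windows. CCND1 turned to -0.72 and NBN to 0.086 when a gene's probe sets were averaged, and THBS1 to 0.58 with the probe set highest over the 7 arrays. With replicate 4 alone, chosen after the data were seen, 2329 and 2092 genes were called. The signal limits what can be said of a gene below 4 in 1 line, whose difference is a poor measure of size.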

Other observations

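Runs of 10 neighbouring genes, shorter than those in the report, showed 3 further clusters of related genes, chosen after their values were seen and not tested. On chromosome 6 the run from HLA-DQB1 to HLA-DPA1, which holds TAP1, TAP2, PSMB8 and PSMB9, had a median difference of 3.47, with 9 of 10 genes called higher in BT20. On chromosome 19 a run of zinc finger genes from ZNF320 to ZNF813 had a median of 3.96, with 6 called higher in BT20 and 0 called the other way, and its median was 4.38 with replicate 4 alone. ZNF415 lay at 9.68 to 10.07 in BT20 and 1.62 to 2.05 in MDA-MB-453, and ZNF677 at 9.08 to 9.74 and 1.73 to 2.51. On chromosome 6 a run of histone genes had a median of -2.78, with 7 of 10 called higher in MDA-MB-453 and 1, the linker histone H1-1 (2.08), in BT20. The core histone genes H3C3 and H3C6 differed by -6.58 and -5.20, and H2AC8 by -4.34. Zinc finger and histone genes have close copies, so probes can read more than 1 of them.

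The letters TATAAA were also counted in the promoters, on both strands. They occurred in 9.94% of the 171 promoters of genes on in BT20 and off in MDA-MB-453, in 11.8% of the 102 of the reverse group and in 4.76% of the 3993 of genes on in both. Among the 9604 genes tested with a promoter the share was 5.44%, and over all promoters in the table it was 12%. These shares are descriptions without a test.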
